A study of Drosophila melanogaster with 3 samples.

Results

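Of the 9708 reproducible peaks of tagged E(bx) in fly embryos, 1783 lay on the X chromosome. The set is the authors' optimal list on the dm6 build, filtered by irreproducible discovery rate (IDR). Peaks were taken as X peaks from the chromosome given in the list, with no use of their strength. They are set here against the 1679 peaks on 2L, 1899 on 3L and 2249 on 3R, 5827 together. E(bx), also called NURF301, is the largest subunit of the nucleosome remodelling factor NURF, whose motor is the ATPase Iswi. The male fly has a single X, and its genes are transcribed at a raised rate through the MSL complex, which carries the RNAs roX1 and roX2 and whose recruitment uses GA-rich sites bound by the protein CLAMP. GAGA factor binds similar repeats and works with NURF, and loss of NURF function is known to leave the male X polytene chromosome of larvae bloated.

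Chromatin came from whole embryos of 0 to 16 h, of strain E(bx)-GFP, a transgenic line that stably expresses E(bx) with a C-terminal GFP tag. All 3 biological replicates belonged to that single group, each with its own biosample, and males and females were pooled. The label's description names an antibody to GFP, while its antibody field reads E(bx), so whether untagged E(bx) was also precipitated is not settled. The comparison made here is therefore between chromosome arms of the same libraries. Embryos of mixed sex hold fewer copies of X than of an autosome, since males have 1 X, and the sex ratio of the pools is not given. Lower signal from fewer copies and less binding per copy cannot be told apart in these lists. No read totals are listed, which leaves the depth of each library unknown. Peaks were called with a control that was not analysed here.

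The sequences shown are from the Release 6 genome of RefSeq (dm6), plus strand, at most 100 bases to each side of the summit and trimmed where they would enter an annotated UTR. Capitals mark matches, on either strand, to sequences whose share differed between X peaks and peaks on the other arms: GA repeat (GAGAGAGA), CA repeat (CACACACA), DRE (TATCGATA), BEAF-32 core (CGATA), A run (AAAAAAAA), TATA box (TATAAA), E-box (CAGCTG) and TCF core (TTTGAA). CG3626, Ulp1 and Mfe2 had the strongest promoter peaks of X, roX1 and roX2 are the RNA genes of the MSL complex, and the other sequences come from the strongest X peak with a GA repeat, a CA repeat, a DRE and an A run.
CG3626, X:4366261-4366416: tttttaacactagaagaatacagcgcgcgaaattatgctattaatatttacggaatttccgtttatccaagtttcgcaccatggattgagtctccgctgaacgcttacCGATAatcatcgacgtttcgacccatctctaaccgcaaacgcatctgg
Ulp1, X:19208188-19208341: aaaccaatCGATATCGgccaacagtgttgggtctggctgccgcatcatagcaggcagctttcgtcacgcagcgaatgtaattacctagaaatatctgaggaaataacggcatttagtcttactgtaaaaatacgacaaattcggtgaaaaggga
Mfe2, X:16270780-16270950: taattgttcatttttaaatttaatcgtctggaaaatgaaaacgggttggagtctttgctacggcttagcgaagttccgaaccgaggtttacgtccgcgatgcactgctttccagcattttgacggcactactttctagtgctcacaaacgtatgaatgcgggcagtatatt
roX1, X:3862656-3862856: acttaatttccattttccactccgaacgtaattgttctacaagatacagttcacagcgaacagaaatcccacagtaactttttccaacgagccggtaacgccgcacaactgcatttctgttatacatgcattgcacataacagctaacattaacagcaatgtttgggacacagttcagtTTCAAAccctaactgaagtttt
roX2, X:11578960-11579160: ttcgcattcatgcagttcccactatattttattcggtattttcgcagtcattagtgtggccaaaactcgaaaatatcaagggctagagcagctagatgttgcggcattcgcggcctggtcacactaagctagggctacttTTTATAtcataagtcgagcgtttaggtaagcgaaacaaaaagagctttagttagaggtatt
fs(1)h, X:8060990-8061190: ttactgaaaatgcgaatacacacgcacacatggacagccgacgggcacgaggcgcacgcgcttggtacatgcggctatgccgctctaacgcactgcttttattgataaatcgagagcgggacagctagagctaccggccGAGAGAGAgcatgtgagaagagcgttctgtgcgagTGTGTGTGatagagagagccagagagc
Pp2C1 intron, X:4684467-4684667: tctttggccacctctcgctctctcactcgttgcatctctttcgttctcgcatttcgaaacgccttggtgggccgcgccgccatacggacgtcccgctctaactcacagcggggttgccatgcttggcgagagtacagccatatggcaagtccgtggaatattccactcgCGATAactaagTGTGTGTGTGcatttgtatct
PhKgamma, X:11694924-11695124: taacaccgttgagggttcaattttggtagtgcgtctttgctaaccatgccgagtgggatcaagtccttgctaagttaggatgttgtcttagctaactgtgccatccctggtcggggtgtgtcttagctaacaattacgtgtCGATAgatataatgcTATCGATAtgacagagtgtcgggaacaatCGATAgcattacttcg
Phf7, X:20165890-20166090: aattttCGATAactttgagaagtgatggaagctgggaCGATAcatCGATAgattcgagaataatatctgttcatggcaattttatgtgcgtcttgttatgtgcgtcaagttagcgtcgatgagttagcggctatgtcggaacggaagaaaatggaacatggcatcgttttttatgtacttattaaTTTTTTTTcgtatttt

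The peak upstream of PhKgamma had a DRE, the site bound by the replication-related element factor DREF, and further BEAF-32 cores around it. The fs(1)h window held a GA repeat and, read on the other strand, a CA repeat. Neither roX start site window held a GA repeat within 100 bp of the summit. The stronger peak inside roX1 is not among the windows shown. A match in such a window is a description of letters, not of a bound site.

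X carried more peaks than its start sites would give on the other arms. There were 50.4 X peaks per 100 clusters of transcription start sites (TSSs merged within 100 bp; 1783 peaks, 3538 clusters), against 39.95 on 2L, 44.56 on 3L and 44.24 on 3R. Over these 3 arms the density was 43.01, so that X stood 1.172-fold higher (95% interval 1.111 to 1.236; two-sided exact binomial test, adjusted p = 2.32e-08). Per length of the whole arm X had 75.74 peaks per Mb, against 71.41 on 2L, 67.56 on 3L and 70.11 on 3R. Over the 3 arms together this ratio was 1.088 (exact binomial test, two-sided, adjusted p = 0.00302). The X value lay above the range of the other arms per cluster and per Mb. How much sequence nearly without peaks each arm holds was not measured, and values per Mb depend on it. With clusters of protein-coding start sites alone, the ratio to the 3 arms was 1.122 (exact binomial test, two-sided, adjusted p = 7.39e-05). The size of the excess thus depends on the start sites counted. In each library's own 9708 best peaks the ratio per cluster of all start sites was 1.163 in replicate 1, 1.147 in replicate 2 and 1.122 in replicate 3. Adjusted p-values here are over 6 comparisons of X with 2L, 3L and 3R (Benjamini-Hochberg). They treat peaks or genes as independent and cover counting error only, since neighbouring peaks share chromatin and all peaks share the libraries.

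More X genes had a peak at their start. Of 2196 protein-coding X genes, 1184 had a summit within 500 bp of a TSS (53.9%, 95% Wilson interval 51.83 to 55.99), against 46.71% on 2L, 50.24% on 3L and 50.04% on 3R, and 4329 of 8817 over the 3 arms (49.1%). The difference was 4.818 points (two-sided Fisher's exact test, adjusted p = 8.31e-05). Genes with a coding start on the opposite strand within 1000 bp, called divergent here, were occupied most: 692 of 794 divergent X genes had a peak (87.15%), against 73.02% on 2L, 80.46% on 3L and 83.32% on 3R. The start may lie on either side, so genes that point toward each other are included. A single summit can count for both genes of a pair. Among the remaining X genes 492 of 1402 had one (35.09%), against 30.9% on 2L, 32.78% on 3L and 30.07% on 3R. Both kinds of gene were higher on X than on 2L, 3L and 3R together (Fisher's exact test, two-sided, adjusted p = 4.18e-07 for divergent genes and 0.00792 for the others), and divergent genes were no larger a share of X genes, 36.16% against 37.23%. Of 543 non-coding X genes, 86 had a promoter peak (15.84%), within the range of 11.53 to 16.38% over the other arms.

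The excess on X was widest away from start sites. Promoter peaks made up 1236 of the 1783 X peaks (69.32%, interval 67.14 to 71.42), against 74.51% on 2L, 72.72% on 3L and 75.59% on 3R. Over the 3 arms the share was 74.34%, a difference of -5.022 points (Fisher's exact test, two-sided, adjusted p = 7.39e-05). The 547 distal X peaks came to 23.23 per Mb of the whole arm, against 18.2 on 2L, 18.43 on 3L and 17.11 on 3R. Per TSS cluster, distal peaks were 1.401-fold denser on X (exact binomial test, two-sided, adjusted p = 1.52e-10) and promoter peaks 1.093-fold (adjusted p = 0.00953). The clusters cancel between these ratios, so that their difference is the one tested above as the promoter share.

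**Figure D1:**
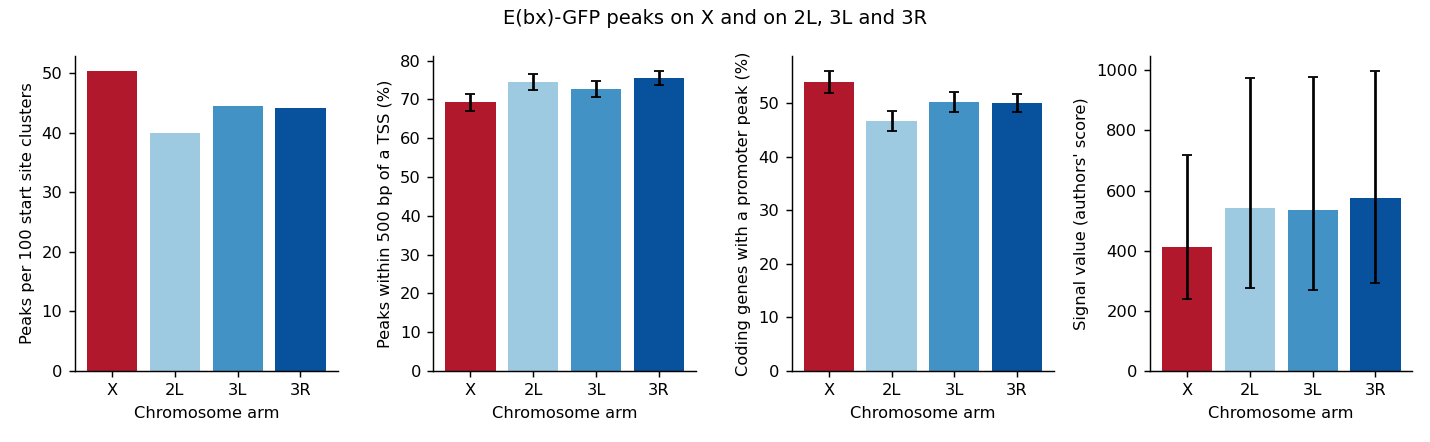
Peaks on X (red) and on 2L, 3L and 3R (blues): peaks per 100 TSS clusters, share of peaks within 500 bp of a TSS, share of protein-coding genes with a promoter peak (bars on both shares are 95% Wilson intervals) and median signal value (bars run from the lower to the upper quartile). X is highest in density (50.4) and in occupied genes (53.92%), and lowest in promoter share (69.32%) and in median signal (412.1).

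By annotation, 4 of 7 classes (57.1%) differed between X and the other arms after adjustment over the classes, 2 higher and 2 lower on X. The TSS window is the promoter share above. Introns held 314 X summits (17.61%), against 11.49% on 2L, 13.69% on 3L and 12.45% on 3R (Fisher's exact test, two-sided, adjusted p = 4.66e-07). Introns outside TSS windows are 43.25% of the X sequence, against 36.37% of 2L, 37% of 3L and 43.13% of 3R, so that 3R had as much intron and fewer intronic peaks. Summits in 3′ UTRs outside TSS windows made up 3.646% on X (65 peaks), against 1.31% on 2L, 1.632% on 3L and 1.512% on 3R (Fisher's exact test, adjusted p = 4.66e-07). Such 3′ UTR sequence is also more common on X, 5.93%, against 3.753 to 4.358% of the other arms. Intergenic summits were fewer, 7.459% on X against 10.96% on 2L, 10.06% on 3L and 8.848% on 3R (Fisher's exact test, adjusted p = 0.00364), on an arm with the least intergenic sequence of these, 22.52% against 23.87 to 32.34%. The intergenic call was lost when replicate 1 or replicate 2 was left out (Fisher's exact test, adjusted p = 0.15 and 0.0571) and with a TSS window of 250 bp (0.137).

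The strongest distal X peaks stood in several kinds of place. A peak in the 3′ UTR of APC7, at -717 bp from the start of pigs (X:6599120-6599609), had a signal value of 2122, the score of the authors' peak caller. Another, in an intron of Hr4, a nuclear receptor gene of the ecdysone response, near CR46447 (X:1952921-1953485), had 2122 as well, and 1 in an intron of the phosphatase gene Pp2C1 (X:4684247-4685007) had 1969. An intergenic peak near lncRNA:CR45667 (X:7678806-7679241) had 1971. The strongest intergenic X peak, 6803 bp downstream of the start of Rilpl and beyond its end, had 2180 (X:1399446-1400097). An intergenic peak 3792 bp downstream of the start of upd2, a ligand gene of the JAK/STAT pathway that had no promoter peak, had 1799. Inside roX1 a further peak lay in its non-coding exon, 758 bp from the start, with a signal value of 1004 (261, 337 and 391 in replicates 1, 2 and 3). That was more than at the roX1 start site in every library.

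X genes with the most summits between their ends, TSS windows included, were long. The non-coding lncRNA:CR44357 (239.3 kb) and Tlk (69.76 kb), a kinase of chromatin assembly, had 16 each, lncRNA:CR32773 (223.7 kb) had 15, CG1677 (124.7 kb) 13, and Raf, the kinase below Ras, and Flo2 had 9 each. Per length Tlk was densest among these, 2.29 summits per 10 kb against 0.668 in lncRNA:CR44357. CG1677 lies within the span of lncRNA:CR44357, so their summits are in part the same.

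X peaks were weaker. The scale of the authors' signal value is unstated, and ratios of it serve as description. Its median was 412.1 on X (quartiles 239.0 and 718.4), against 541.3 on 2L, 535.2 on 3L and 576.1 on 3R, a ratio of 0.7441 to the 3 arms together. X peaks above the median of those arms numbered 667 (37.41%), against 2913 (49.99%; Fisher's exact test, two-sided, adjusted p = 5.34e-20). Promoter peaks had a median of 509.0 on X and 652.5 on the other arms (ratio 0.7801), and distal peaks 265.7 and 341.1 (ratio 0.779), so the ratio was close in both. With X signal raised 4/3-fold on the same peaks, for the reason given below, the shares above that median were 49.36% and 49.99% (Fisher's exact test, two-sided, adjusted p = 0.646). The factor takes an even sex ratio and a signal in proportion to copies, and neither was tested. The raised X peaks also keep their old cut-off, so no cause is read from this value. The widths differed less, with a median of 411 bp on X and 444 bp on the other arms.

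Each library showed the lower signal by itself. Among its own best peaks, the median of X promoter peaks was 140.6 in replicate 1, 176.7 in replicate 2 and 207.0 in replicate 3, against 175.9, 219.4 and 250.1 on 2L, 3L and 3R. X was below each of the other arms in each library. The ratios were 0.7996, 0.8053 and 0.8274, with a mean of 0.8108 ± 0.0147 (SD, n = 3). Over the reproducible peaks matched in all 3 libraries, promoter and distal together, they were 0.7706, 0.7731 and 0.7731 (mean 0.7723 ± 0.00143, SD, n = 3). An exact sign-flip test over 3 libraries cannot go below a two-sided p of 0.25, so these ratios are given without a test.

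The density of X turned round along the range of strength. The reproducible set was cut by signal into 4 blocks of 2427 peaks. In the strongest block X had 0.62 times the peaks per TSS cluster of 2L, 3L and 3R (95% interval 0.5417 to 0.7072; 260 X peaks). In the following blocks the ratio was 1.193, 1.444 and, in the weakest, 1.518 (1.373 to 1.678; 546 X peaks). No X peak was among the 10 strongest of the set, 1 was among the 50 strongest and 84 among the 1000 strongest. X held 18.37% of the whole set, and a count among 10 peaks says little. Over the 4854 strongest peaks X was less dense, 0.8931-fold (exact binomial test, two-sided, adjusted p = 0.00951), the occupied share of coding genes was 35.7% on X against 37.76% (adjusted p = 0.114) and the promoter share differed by -0.1857 points (adjusted p = 0.908). The higher density, the higher share of occupied genes and the lower promoter share of X held over the whole set. They did not hold over its stronger peaks as ranked by the deposited signal. That signal was lower on X, so a cut by it leaves fewer X peaks among the strong ones. The turn in density is therefore not separate from the lower signal. In the weakest block 49.08% of X peaks were at promoters, against 58.17% on the other arms, while in the strongest block the shares were 86.92% and 87.48%.

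An even sex ratio would leave 3 copies of X for each 4 of an autosome. Whether the signal value scales with copies is not known. With the X signal of the same 1783 peaks raised 4/3-fold, the X median was 549.5, against 553.8 on the other arms (ratio 0.9922). For promoter peaks it was 678.7 against 652.5 (ratio 1.04) and for distal peaks 354.3 against 341.1 (1.039). These peaks were chosen before the change, so the X peaks then have a higher lowest value than the others. With the X signal raised 4/3-fold in the pooled list and the 9708 strongest peaks taken again, 2032 lay on X and the X density was 1.378-fold that of the other arms. By block it was then 1.112 (interval 0.9968 to 1.239), 1.224, 1.536 and 1.674, strongest to weakest. This choice adds weak X peaks and drops weak peaks of the other arms, which by itself lowers the X median, 472.5 against 575.5, and the share above the other arms' median, 42.22%, so no test is read from them. The pooled list, which reaches far below the reproducible set, had 6336 X peaks of 30000 (21.12%), against 18.37% of the reproducible set.

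**Figure D2:**
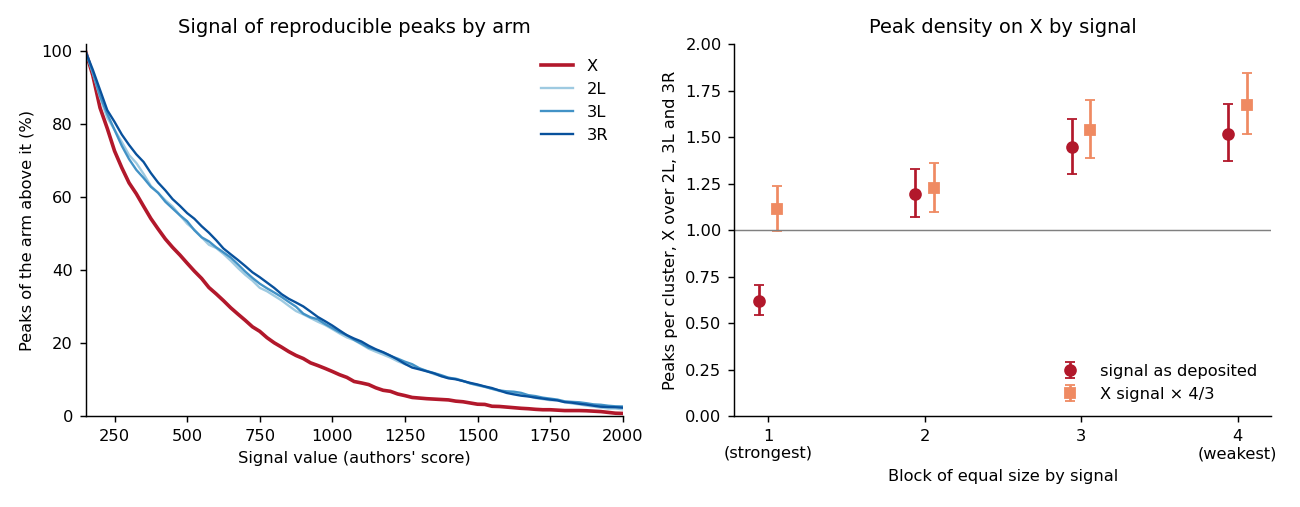
Left: percent of each arm's reproducible peaks (X, 2L, 3L, 3R) above a given signal value. Right: peaks per TSS cluster on X over 2L, 3L and 3R by block of 2427 peaks from strongest to weakest, with 95% intervals, for signal as deposited (0.62 in the strongest block and 1.518 in the weakest) and with X signal raised 4/3-fold (1.112 and 1.674).

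Recurrence of X peaks between the libraries was within the range of the other arms. In all 3 libraries' best peaks, a summit lay within 200 bp of 1359 X peaks (76.22%, interval 74.19 to 78.14), against 77.31% on 2L, 75.57% on 3L and 78.21% on 3R. The difference from the 3 arms, -0.8696 points, did not pass the test (Fisher's exact test, two-sided, adjusted p = 0.46). Of the rest, 305 were found in 2 libraries, 111 in 1 and 8 in none. Replicate 3 held fewest, 86.71% of X peaks, against 91.42% in replicate 1 and 90.97% in replicate 2, and it alone supplied 75 of the 111 found in 1 library. So was the position at promoters: 999 of 1236 promoter summits on X were upstream of the nearest TSS (80.83%), against 78.5% on 2L, 79.22% on 3L and 80.94% on 3R (adjusted p = 0.46, Fisher's exact test, two-sided). The median promoter summit lay at -49 bp on X, outside the range of -41 bp on 2L, -42 bp on 3L and -45 bp on 3R, a difference that was not tested. GC content of the whole arm sequence was 42.46% on X and 42.04% on the other arms together.

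Peaks followed start sites along X. Across 24 bins of 1 Mb, the last shorter, peaks ranged from 9 to 111 and correlated with the number of TSS clusters (Pearson's r = 0.92, Spearman's rho = 0.939; a description over bins of 1 chromosome that share the libraries). The most occupied bins were the 16th, where 95 of 141 coding genes had a promoter peak (67.38%), and the 7th (67.27%). The least occupied were the 23rd (11 of 46 genes, 23.91%), the 21st (25.93%) and the 15th (29.55%). Density ran from 22.5 peaks per 100 clusters in the last bin, which lies toward the centromere, to 59.7 in the 8th. The longest stretch of X without a summit was 807.1 kb, against 350.4 kb on 2L, 712.4 kb on 3L and 1199 kb on 3R.

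**Figure D3:**
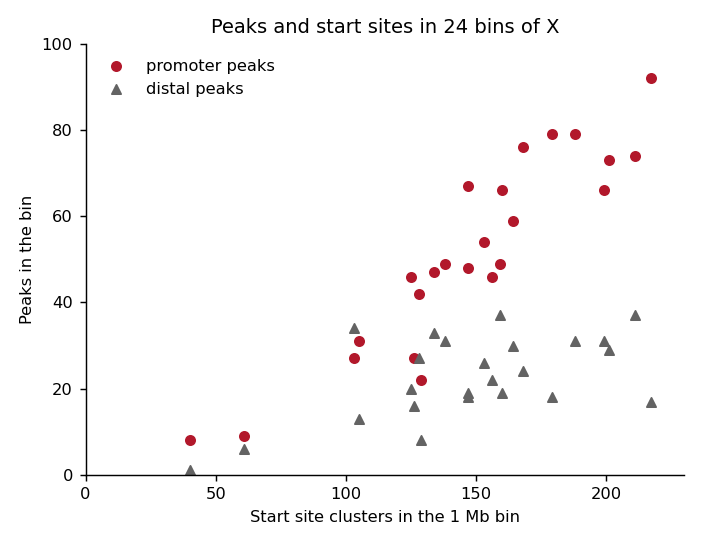
Promoter peaks (red circles) and distal peaks (grey triangles) against the number of TSS clusters in each of 24 bins of X. Promoter peaks climb with start sites, up to 92 in a bin, while distal peaks lie between 1 and 37.

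Short sequences at the summits differed between X and the other arms for 8 of 14 motifs (57.1%), in windows of 201 bp, with 5 more frequent on X and 3 less frequent (two-sided Fisher's exact test, adjusted over the motifs). Those more frequent were the DRE, in 11.72% of X peaks against 8.855% (Fisher's exact test, adjusted p = 0.00105), the BEAF-32 core, 44.98% against 39.76% (0.000326), the GA repeat, 7.964% against 5.406% (0.000361), the CA repeat, 9.366% against 6.178% (8.03e-05), and the A run, 13.29% against 9.576% (8.03e-05). The X share of each was above that of 2L, of 3L and of 3R. Less frequent on X were the TATA box, 21.76% against 26.63% (Fisher's exact test, adjusted p = 0.000147), the E-box, 14.25% against 16.7% (0.0239), and the TCF core, 27.65% against 30.98% (0.0146). The E-box call was lost without replicate 1 or replicate 2 (Fisher's exact test, adjusted p = 0.11 and 0.239) and the TCF core call without replicate 3 (0.106). Over promoter peaks alone neither passed (0.35 for the E-box and 0.156 for the TCF core), nor did they over the 4854 strongest peaks (0.196 and 0.129). With windows of 50 or 200 bp to each side the TCF core did not pass (0.339 and 0.092). The other 6 that did not pass were motif 1 (GGTCACACT, bound by M1BP), Ohler motif 7 (CATCNCTA), the Zelda site (CAGGTA), the GATA site (AGATAA), the CREB core (TGACGTCA) and the G run (GGGGGG). Every DRE contains a BEAF-32 core, so those 2 are not separate.

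The DRE and BEAF-32 core were features of promoter peaks. At X promoter peaks the DRE stood in 16.34%, against 11.4% on the other arms (adjusted p = 4.81e-05, Fisher's exact test, two-sided), and the BEAF-32 core in 54.37% against 45.36% (adjusted p = 3.75e-07). At distal peaks the DRE was in 1.28% on X and 1.472% elsewhere, and the BEAF-32 core in 23.77% and 23.55%. GA and CA repeats were instead most common at distal peaks: the GA repeat was in 14.99% of distal X peaks, against 10.05% on 2L, 10.23% on 3L and 14.03% on 3R, and the CA repeat in 15.54%, against 10.51%, 12.74% and 10.38%. None of the 14 motifs passed among distal peaks after adjustment (Fisher's exact test), and 5 had an unadjusted p under 0.05, the GA and CA repeats among them. Over the 4854 strongest peaks the GA repeat did not pass either, at 2.517% on X and 1.99% elsewhere (Fisher's exact test, adjusted p = 0.488).

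These sequences are commoner on X in general. Per Mb of X there were 226.6 GA repeats, 993.1 CA repeats, 39.21 DREs and 3412 A runs, which is 1.892, 2.032, 1.505 and 2.064 times their number on 2L, 3L and 3R. Of all windows of 201 bp at X start sites, 8.062% held a DRE, 38.98% a BEAF-32 core, 2.585% a GA repeat, 5.759% a CA repeat and 16.56% an A run. The shares of such windows on the other arms were 4.869%, 33.34%, 1.853%, 3.618% and 9.841%. For the motifs less frequent on X they were 22.22% against 27.39% for the TATA box, 11.39% against 12.49% for the E-box and 22.24% against 25.64% for the TCF core. In windows 1000 bp from the X summits, 5.889% held a CA repeat and 12.34% an A run, against 3.793% and 7.654% beside the other arms' summits, while GA repeats were in 1.963% and 1.51%.

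Set against the number of sites in the genome, X stood closer to the other arms for most of these sequences. Counting matches within 100 bp of each other as 1 locus, 144 of 1812 GA repeat loci on X had a summit within 100 bp (7.947%, 95% Wilson interval 6.789 to 9.283), against 7.436% on the other arms (6.702 to 8.242). For the DRE the shares were 25.45% on X (22.62 to 28.5; 214 of 841 loci) and 24.94% elsewhere (23.14 to 26.83), and for the CA repeat 2.604% and 2.407%. For these 3 the intervals overlapped, as they did for the rest of the 14 motifs apart from motif 1 and the BEAF-32 core. For motif 1 they did not overlap, with 39.67% on X (34.34 to 45.26; 121 of 305) and 50.31% elsewhere (46.87 to 53.75). Nor did they for the BEAF-32 core, with 3.226% on X (3.019 to 3.448; 840 of 26035) and 2.738% elsewhere (2.632 to 2.848). These shares are a description and were not tested. Of X start sites with a DRE in their window, 278 of 315 had a summit within 500 bp (88.25%), against 91.57% on the other arms. Of those without, 38.06% had one on X, against 36.3%. Start sites with a BEAF-32 core had a summit in 60.54% of cases on X, against 53.87%, and those without in 30.33% and 31.55%. For motif 1 the arms were closer by this measure than by locus. Start sites with it had a summit in 94.12% of cases on X (144 of 153), against 96.76%.

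Signal went with these sequences in opposite ways. X promoter peaks with a DRE had a median signal of 598.2, against 486.8 without, and on the other arms the medians were 748.3 and 637.5. With a BEAF-32 core X promoter peaks had 562.4, against 416.3 without. With a GA repeat the median of X promoter peaks was 301.4, against 522.4 without, and the other arms had 328.8 and 670.1. For GA repeats at promoters the X median was thus nearer to that of the other arms than for the DRE. The same held for the CA repeat, with 345.6 on X and 323.8 elsewhere. Peaks with either repeat were weak on all arms, nearer to the lowest X signal of the set, 156.0. These medians were not tested.

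**Figure D4:**
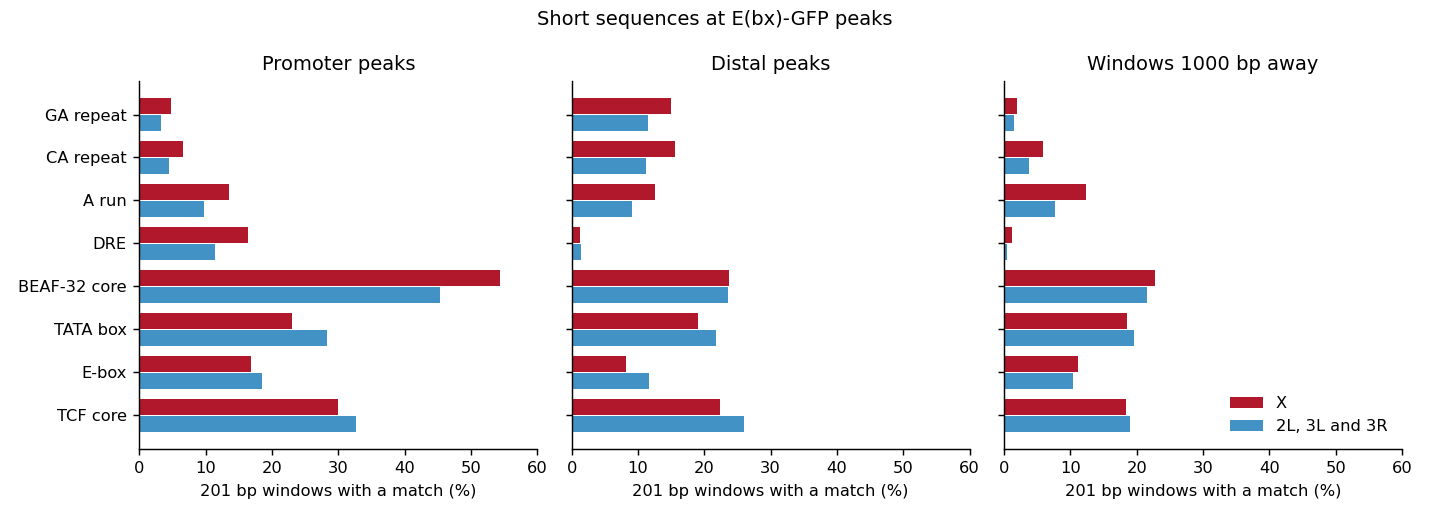
Percent of 201 bp windows with a match to 8 short sequences, on X (red) and on 2L, 3L and 3R together (blue), at promoter peaks, at distal peaks and in windows 1000 bp away. The DRE and the BEAF-32 core are highest at promoter peaks (16.34% and 54.37% on X), GA and CA repeats at distal peaks (14.99% and 15.54% on X).

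The strongest X peak lay at -56 bp from the start of CG3626 (X:4366101-4366679), with a signal value of 2658, the 49th in the whole set. In the libraries' own lists it had 817, 1020 and 852 in replicates 1, 2 and 3. The microRNA genes mir-303 and mir-982 start within 500 bp of it. Next came Ulp1, a SUMO protease, with 2429 (804, 920 and 742), Mfe2, an enzyme of peroxisomal fatty acid oxidation, with 2214 (673, 799 and 736), and CG9902 with 2205 (687, 843 and 683). The peak between lncRNA:CR44966 and RpL22, a protein of the large ribosomal subunit, had 2192 (639, 859 and 754). Of the 20 strongest X peaks 15 were at a start site, against 69.32% of all X peaks and 86.92% of those in the strongest block. Several stood between 2 genes read in opposite directions or start sites close together: CG16903 and Unc-76 (2169), CG1998 and the histone methyltransferase gene Set2 (2118), fs(1)N and DAAM (2078), Ocrl and eIF2Bepsilon (2028), and c12.2 and c12.1 (1990). Gbeta13F, a G protein subunit, had 2084, PhKgamma, a subunit of phosphorylase kinase, 2007, CG5273 had 1966, CG33932, beside the respiratory chain gene COX6B, 1959, and CG3918 1930. Replicate 2 gave the highest value at most of these peaks, and the intergenic peak near Rilpl varied most, with 774, 902 and 506.

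**Figure D5:**
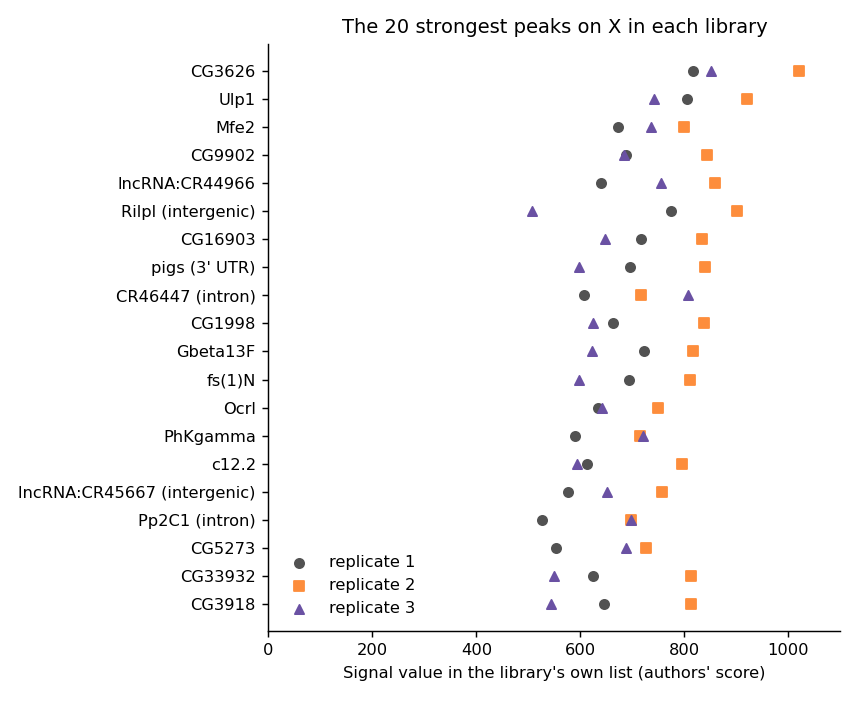
Signal value of the 20 strongest X peaks in the list of each replicate (circle, square and triangle for replicates 1, 2 and 3), labelled by the nearest gene and, away from start sites, by class. Values lie between 506 and 1020, and replicate 2 is highest at most peaks.

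All 3 listed genes of dosage compensation on X had a promoter peak. The shares were 53.92% over all X coding genes, such as mof, and 15.84% over non-coding X genes, such as roX1 and roX2. With a list this short, the count is not set apart from those shares. At the start of roX2 the signal value was 674 (156, 258 and 258 in replicates 1, 2 and 3), at roX1 642 (164, 163 and 305). At mof, the histone acetyltransferase of the MSL complex, it was 332, or 63, 118 and 128 in the libraries. Both roX peaks were above the median of X promoter peaks and mof below it. Replicate 3 was higher than replicate 1 at all 3 genes, as it was in the median of X promoter peaks (207.0 against 140.6).

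Of 6 genes of sex determination and X counting, 3 had a promoter peak, a share close to the 53.92% of all X coding genes. Sxl, the switch gene of female development, had 1398 (407, 565 and 439 in replicates 1, 2 and 3), with its summit at -114 bp from a start. The splicing factor gene snf had 982 (303, 296 and 398) from a peak that also lies within 500 bp of Cdk7. The peak at run, an X-linked signal element, was weak, 240, and uneven, with 23, 42 and 178 in the libraries. The signal elements sc, sisA and upd1 had none, and neither had any of ac, sc, l(1)sc and ase of the achaete-scute complex. Absence here means that no summit of the reproducible set lay within 500 bp of a start, not that no protein was bound.

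Genes of growth and protein synthesis were nearly all occupied, against 53.92% of X coding genes. All 14 cytosolic ribosomal protein genes on X had a promoter peak, with signal values from 384 to 2192 and a median of 887. After RpL22 the highest were RpS14a (1493), RpL17 (1244), RpL37-1 (1100), RpL36 (923) and RpS19a (901), then RpL7A (890), RpS10b (884), RpS15Aa and RpS5a (837 each). The lowest were RpS14b (518), RpS6 (510), RpL35 (391) and RpS28b (384). RpS14a and RpS14b are neighbouring copies with separate peaks, so reads from their shared sequence may be split between them. The 11 mitochondrial ribosomal protein genes had one too (281 to 971), led by mRpS14 (971), mRpL16 (931) and mRpL22 (860), as had 7 of 7 cell cycle genes, led by mus101 (1066), the kinase gene Cdk7 (982) and mei-41 (846), which encodes the ATR kinase. Of 6 proteasome genes 4 were occupied, Rpt4 (1898), Rpt6 (1364) and Rpt3 (766) most strongly, while Prosbeta2R1 and Rpn13R had none.

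Of 14 chromatin regulators 13 had a promoter peak. The highest was at fs(1)h, the fly's BET bromodomain gene, with 1657 (556, 848 and 518 in replicates 1, 2 and 3). It was followed by e(y)3 with 1187 (352, 361 and 420) and Bap111 with 1147 (318, 350 and 475), both genes of the Brahma remodelling complexes. Smr, a corepressor, had none at its start but 5 summits in its body. The peak region of fs(1)h extends to the start of mys, an integrin subunit, where a second summit had 595, but 437, 482 and 52 in the libraries. Muscle and adhesion genes were occupied in 3 of 5 cases, a share near that of all X coding genes (53.92%). The other two were if (860), whose peak is the one at the start of mRpL22, and Actn (517), and up and wupA had none.

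Genes of development and signalling were mixed, against a share of 53.92% over all X coding genes. Of 13 patterning transcription factors 11 had a promoter peak, from 207 to 1530, with a median of 331 that is below that of X promoter peaks. The head gap gene oc had 1530 (399, 522 and 594), ovo had 1362 (384, 499 and 468) and btd 1079 (289, 419 and 380), whereas gt, a gap gene, and lz had none. Of 17 signalling genes 12 had one (70.59%). The phosphatase gene csw had 1681 (504, 651 and 524), the receptor gene N (Notch) 1528 (409, 598 and 555) and dsh, of the Wnt pathway, 1054 (302, 343 and 427), while sog and tsg, of the BMP pathway, had none. Of 13 neuronal genes 8 had one (61.54%), with a median of 506 and the highest values at Nrg (738), Appl (656) and rut (647). Sh and futsch had none at their starts, although Sh had 2 summits in its body. Of 8 germline and maternal genes 6 had one, with 2078 at fs(1)N, 1362 at ovo and 1143 at egh, and fs(1)Ya and otu had none.

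Metabolic genes were occupied in 5 of 7 cases (71.43%, against 53.92% of all X coding genes), led by the pyrimidine synthesis gene r (1229), ras (905), of purine synthesis, and Gapdh2 (495), with none at Zw and v. Of 8 pigment and marker genes 6 had a peak (75%), led by car, rb and g (1269, 827 and 740), while m and y had none. The car peak differed between libraries, with 445, 418 and 189. In the ecdysone list usp, the partner of the ecdysone receptor, had 629 and dor 485, and br and phtm had none. With lists this short, these shares are not set apart from that of all X coding genes.

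Some families on X had no promoter peak at all, where 53.92% of all X coding genes had one. The counts were not tested, and the cuticle list has only 4 members. No promoter peak was found at any of 31 chemosensory receptor and binding protein genes (Gr10a and Gr10b among them), at any of 9 egg shell and yolk genes (Cp36 and Cp38 among them) or at the 4 cuticle protein genes (Cpr11A and Cpr11B among them). Of 26 transfer RNA genes 5 had one (19.23%), near the 15.84% of all non-coding X genes. The list includes genes annotated as pseudogenes, which the non-coding share leaves out. The highest was tRNA:Phe-GAA-1-2 (1244), whose peak is that of RpL17. The next were tRNA:Pro-CGG-2-1 (358) and tRNA:Arg-TCG-2-1 (346), and tRNA:Arg-TCG-1-1 and tRNA:Arg-TCG-2-2 had none. Of 58 microRNA genes 8 had one (13.79%), near that share too, led by mir-303 and mir-982 at the CG3626 peak and by mir-9370 (850), while mir-1007 and mir-10404-3 had none. For these small RNA genes the start in the annotation is that of the hairpin or the mature transfer RNA, not of the transcript.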

How the data were processed

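Peak lists of ChIP-seq in 3 libraries of whole embryos were used: 1 per replicate, 1 from pooled reads and the optimal IDR set, on dm6. By the deposited records, calling used a control and the IDR set was made from these lists; the aligner, the caller and its settings are not given in the sources read. Column 7 of the deposited lists is the authors' signal value, on an unstated scale. Column 9 is the deposited −log10 q-value and was the same for all peaks of the IDR set, so it was not used to rank them. No read counts are given, so depth is unknown and intervals cover counting error only. The dm3 lists were used for counts alone.

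Summits were set against Ensembl release 115 gene models, without transposable elements (18164 genes, 13945 coding), and the Release 6 sequence of RefSeq. A promoter peak has its summit within 500 bp of a TSS. Each summit got 1 class, TSS window first, then coding sequence, the UTRs (5′ before 3′), non-coding exons, introns and intergenic sequence. Libraries were matched within 200 bp among each list's best 9708 peaks; leaving out a replicate kept the IDR peaks matched in both others. Motifs were searched on both strands within 100 bp of the summit. Python 3.11.15, NumPy 2.4.6 and SciPy 1.17.1 were used, with Fisher's exact and exact binomial tests and a threshold of 0.05, after a test on simulated data. Divergent and other genes, distal density, distal motifs and X signal raised on the same peaks were tested as alternatives added after seeing the data. An alternative of the 6 comparisons was adjusted in place of its main result, beside the main p-values of the rest. Distal motifs were adjusted over the 14 motifs. No adjustment counts the added tests.

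The 21 gene lists and 14 motifs, like the choice of X, were chosen with earlier results of these data known, and 5 symbols were matched through synonyms. Named genes are those nearest to the 20 strongest X peaks, all members of 4 lists (dosage compensation, sex determination, achaete-scute and cytosolic ribosomal proteins), of other lists the 3 strongest and the first 2 by alphabet without a peak, and the 5 with most summits in the body (Flo2 ties with Raf). The strongest distal peaks and upd2 were named after their values were seen. Alternatives were other TSS windows (250 and 1000 bp), motif windows (50 and 200 bp to each side), matching distances (100 and 500 bp), single arms, each library's best peaks, the 4854 strongest peaks and X signal raised 4/3-fold.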

Additional observations from a re-analysis of the deposited data

Results flagged for a closer look

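The dm3 version of the reproducible set holds 5 peaks on the X heterochromatin scaffold, a sequence of that older build. They lie outside the comparisons made above, which used dm6, and are given because they are signal in data otherwise not analysed. The dm3 set had 1733 peaks on X itself, of 9423.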

How the results depend on the processing

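For the 6 comparisons of X with the other arms, 71 of 78 alternative values kept their direction and side of the threshold. With X signal raised 4/3-fold on the same peaks, the difference in peaks above the median was -0.6364 points (Fisher's exact test, adjusted p = 0.646). That value rests on an assumed factor and on peaks chosen before the change. Over the 4854 strongest peaks the density ratio turned to 0.8931 (exact binomial test, adjusted p = 0.00951) and the gene difference to -2.055 points (Fisher's exact test, adjusted p = 0.114), the promoter share difference was -0.1857 points, and 5 motifs passed. With distal peaks alone 0 motifs passed (Fisher's exact test; 5 at an unadjusted p under 0.05). The cause was not tested, although both settings hold fewer peaks. Agreement between libraries differed by 0.6538 points against 3L only, and upstream position by -0.1159 points against 3R only and by -0.02904 points among the best peaks of replicate 1; none of these passed a test in any setting. The signal ratio was 0.7775 over all best peaks and 0.7723 over matched peaks. Without 1 replicate the density ratio was 1.154 to 1.169, the gene difference 4.487 to 4.538 points, the signal ratio 0.8025 to 0.8164, and 7 motifs and 3 to 4 classes passed. Counts of 6 to 9 motifs in the other settings and of 3 classes with a TSS window of 250 bp reflect the E-box, TCF core and intergenic calls named above, and the G run and the GATA site, which passed with windows of 200 bp to each side. Density was 1.262-fold against 2L, 1.131-fold against 3L and 1.139-fold against 3R. No paired analysis was possible because no 2 groups share replicate numbers; X and the other arms were set side by side within each library. The depth is unknown, so a missing peak shows only that none was called in the set.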
